A study of Mus musculus with 8 samples.

Results

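Mitochondrial ribosomal proteins are encoded in the nucleus, translated by cytosolic ribosomes and imported into mitochondria, where they join mitochondrial rRNAs in a small and a large subunit. The finished ribosome makes the few proteins encoded by mitochondrial DNA, which are core subunits of the respiratory chain and of ATP synthase. Some of its proteins have bacterial counterparts, and others occur only in mitochondria. The 77 genes described here are those whose symbols begin with Mrpl or Mrps and a number and whose expected counts, summed over the footprint libraries, reached 40. All 77 such symbols among the 23845 genes of the tables met that minimum. The lowest sum, 598.93, was that of Mrpl32, so no gene lay near the limit on either side. By the annotation of subunits used here, 26 genes encode small-subunit proteins and 50 large-subunit proteins. The remaining gene, Mrps36, carries a mitoribosomal name but encodes a component of the α-ketoglutarate dehydrogenase complex. Mrps30 and Mrps18a carry small-subunit names and encode large-subunit proteins.

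The cells were METTL5 knockout (KO) and wild-type (WT) mouse embryonic stem cells at passages 5 to 10. METTL5 methylates an adenosine of 18S rRNA in the cytosolic ribosome, not in the mitochondrial one. Ribosome-protected fragments (Ribo-seq, "footprints"), purified from the monosome fraction of sucrose gradients, and total RNA (RNA-seq) were sequenced from 2 KO and 2 WT libraries each, to compare mRNA levels and translation with and without the enzyme. The series calls the replicates biological, and neither the way the KO was made nor the number of KO lines is stated. The p-values therefore measure only the spread between these libraries.

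Levels are given in CPM, expected counts scaled to one common library total, and, where genes are compared with each other, in the deposited TPM, which also divides by transcript length. Footprint libraries held 8401463 to 11487964 counts and RNA-seq libraries 152195 to 219567. In one library 3 counts, taken as the limit of detection, came to between 0.261 and 0.357 CPM for footprints and between 13.7 and 19.7 CPM for RNA-seq. Mettl5 footprints stood at 4.08 and 4.79 CPM in KO, against 41.2 and 45.9 CPM in WT (log2 fold change -3.27, adjusted p = 0.00131). All 10 pluripotency markers examined had footprints in every library, and their summed level was 7325 and 7150 CPM in KO against 5748 and 7446 CPM in WT. The largest part was Dppa5a, with 2979 and 3313 CPM in KO against 1743 and 2994 CPM in WT. None of the 10 passed the test. Zfp42 had 754 and 691 CPM in KO against 1084 and 1096 CPM in WT (-0.58, adjusted p = 0.0904). Pou5f1 had 894 and 753 CPM in KO against 712 and 636 CPM in WT (0.30, adjusted p = 0.360). Summed footprints of 10 fibroblast markers were 587 and 713 CPM in KO against 383 and 227 CPM in WT. Col3a1, a collagen, rose to 3.54 and 8.88 CPM in KO, against 0.669 and 0.238 CPM in WT (adjusted p = 0.0272). Its level in WT replicate 2 lay below the limit of detection. The other 7 of the 8 fibroblast markers tested did not pass the test. Among them Col1a1 had 212 and 274 CPM in KO against 70.9 and 23.9 CPM in WT (log2 fold change 2.37). Col1a2 had 61.9 and 87.4 CPM in KO against 25.9 and 7.97 CPM in WT (2.14). Thy1 (-0.51) and Pdgfra (-1.20) had negative log2 fold changes. Both KO libraries lay above both WT libraries for 6 of the 8, against 24.3% of all genes, and below them for 2, against 25.5%. Postn and Lum were at 0 in at least 1 library. Summed footprints of 10 endoderm markers were 537 and 663 CPM in KO against 787 and 900 CPM in WT, with Afp at 0 in at least 1 library. Cubn, Dab2 and Col4a1 were called lower in KO (adjusted p of 0.00907, 0.00907 and 0.0108). These were 3 of the 8 tested, against 0.617% of all genes. Lamb1, the largest part of the sum, had 435 and 534 CPM in KO against 438 and 453 CPM in WT (log2 fold change 0.14). It alone of the 8 had a positive value. Both KO libraries lay below both WT libraries for 6 of the 8, against 25.5% of all genes. The part of these marker differences in the results below was not tested.

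Promoters of mitochondrial ribosomal protein genes are known for binding sites of ETS factors such as GABP, of NRF1, a regulator of nuclear genes for mitochondria, and of YY1. Of the 77 genes, 68 had a promoter in the RefSeq table (GRCm38.p6), which holds 250 bases before and 50 bases after the start. The letters CCGGAAG of an ETS core stood on either strand in 25 of the 68 (36.8%), against 20.3% of 9224 other genes tested in footprints. The NRF1 core, searched as 10 letters with 1 free position, stood on either strand in 13 (19.1%), against 11.7%. A YY1 site that contains an ATG stood in 5 (7.35%), against 1.80%. Over all 27025 promoters of the table the shares were 9.93%, 5.19% and 0.755% in the same order, and in no promoter did matches of different motifs overlap. Cytosolic ribosomal protein genes held ETS letters in 26 of 64 promoters, the NRF1 core in 6 and the YY1 site in 0. These are matches of letters and not measured binding. The following windows lie upstream of the start and are shown because each holds one such match, with 20 flanking bases on each side. The first pair holds the ETS core and the second pair the NRF1 core, in capitals; all are given 5′ to 3′ on the gene's strand. The NRF1 core of Mrpl12 matches on the opposite strand, and the other matches lie on the gene's own strand.

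Mrpl22, chr11:58171591-58171637, plus strand: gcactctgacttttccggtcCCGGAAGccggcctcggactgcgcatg

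Mrpl43, chr19:45006472-45006518, minus strand: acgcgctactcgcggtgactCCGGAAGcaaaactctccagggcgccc

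Mrpl12, chr11:120484536-120484585, plus strand: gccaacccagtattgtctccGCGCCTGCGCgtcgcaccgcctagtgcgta

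Mrpl45, chr11:97315576-97315625, plus strand: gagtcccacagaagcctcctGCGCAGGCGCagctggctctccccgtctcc

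Footprints on the 77 genes made up 0.443% and 0.424% of all footprint counts in KO, against 0.506% and 0.472% in WT. Their summed level averaged 4335 ± 133 CPM in KO and 4892 ± 243 CPM in WT (SD, n = 2 each), a log2 ratio of -0.17. Both KO sums lay below both WT sums. The ratio was -0.11 when counts of Rn45s, the ribosomal RNA precursor, were left out of the library totals; Rn45s took 10.6% and 15.2% of counts in KO against 7.58% and 10.9% in WT. In bulk cultures, fewer cells of a kind and less RNA per cell cannot be told apart. Every one of the 77 genes had at least 10 counts in each footprint library. The median gene stood at 48.6 and 47.2 CPM in KO, against 55.9 and 55.0 CPM in WT.

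Levels per length spread widely although the proteins are built into one particle. The mean TPM over the 4 footprint libraries had a median of 73.8 over the 77 genes, and 26 genes exceeded 100. Mrpl52, a mitochondria-specific protein of the large subunit, had the highest footprint TPM, 396 and 309 in KO against 498 and 367 in WT. Mrpl20, the counterpart of a bacterial protein needed to assemble the large subunit, had 293 and 307 TPM in KO against 325 and 348 in WT. Mrps18c followed with a mean of 260 TPM, and Mrpl24 with 248. The libraries of Mrpl52 and Mrpl20 overlapped in TPM, as did those of Mrps18c and Mrpl24, while all Mrpl20 libraries lay above all Mrps18c libraries. At the low end Mrpl41 had 11.9 and 10.8 TPM in KO against 14.2 and 18.4 in WT, and Mrpl57 had 19.4 and 17.9 in KO against 16.1 and 16.4 in WT. The highest mean was 28.4 times the lowest. Both low genes are counted over long gene models of 2423 and 2321 bases, as the length column gives them, and the Mrpl52 model has 412 bases, so a level per length depends on the untranslated sequence that a model includes. The 3 paralogs of bacterial S18, which take different places in the ribosome, had footprint TPM means of 99.5 (Mrps18a), 135 (Mrps18b) and 260 (Mrps18c).

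Most of the 77 genes had fewer footprints in KO by a small margin, and 2 of them, Mrpl19 of the large and Mrps35 of the small subunit, fell past the threshold. Of the 77, 53 had a negative log2 fold change (68.8%), against 49.2% of the 12315 genes tested, and the median was -0.10 against 0.01. With the edgeR quasi-likelihood test and Benjamini-Hochberg adjustment over all genes, 2 of 77 were called lower and 0 higher. Over all genes 2.44% were called, 0.617% lower and 1.83% higher. At an unadjusted p below 0.05 there were 13 of the 77, against 19.4% of all genes. DESeq2 called 3 lower and 0 higher, and 3.04% of all genes. Both KO libraries lay below both WT libraries for 31 genes (40.3%), against 25.5% of all genes, and above them for 6 (7.79%), against 24.3%; the remaining 40 overlapped. Fold changes ran from -0.86 to 0.29 on the log2 scale, and 6 exceeded 0.5 in size.

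**Figure D1:**
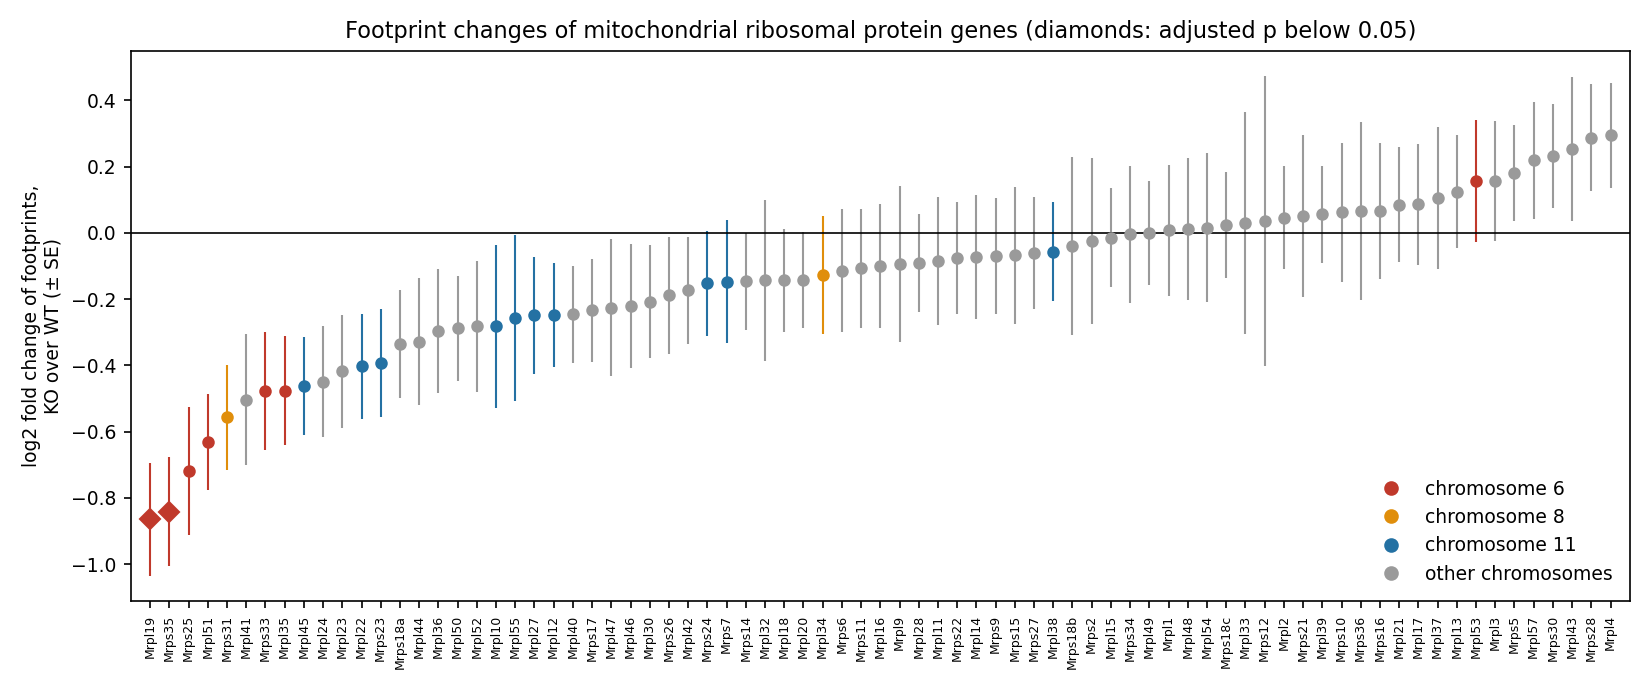
The log2 fold change of footprints, KO over WT, is plotted for each of the 77 genes in rising order; whiskers are ± SE of the edgeR fit and colours give the chromosome. The 2 diamonds, Mrpl19 at -0.86 and Mrps35 at -0.84, are the genes called; 4 of the 5 lowest points lie on chromosome 6.

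Mrpl19, the counterpart of a bacterial large-subunit protein at the subunit interface, is encoded on the minus strand at chr6:81957851-81965958 (GRCm38). Its footprints stood at 44.6 and 43.5 CPM in KO against 88.7 and 73.2 CPM in WT. The KO libraries were close together, and both were well below the lower WT library. The log2 fold change was -0.86 (SE 0.17, adjusted p = 0.0369). Mrps35, a mitochondria-specific protein of the small subunit, is encoded on the plus strand at chr6:147042764-147073991. It had 65.5 and 59.1 CPM in KO against 124 and 101 CPM in WT, again without overlap. Its log2 fold change was -0.84 (SE 0.16, adjusted p = 0.0357). Leaving out either KO library ended both calls: adjusted p was 0.140 for Mrpl19 and 0.0977 for Mrps35 without KO replicate 1, and 0.0886 and 0.110, in the same order, without KO replicate 2. Both calls also ended with limma on log2(TPM + 1) (0.0779 for Mrpl19 and 0.0795 for Mrps35) and with chromosome medians removed, described below.

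Below these, the small-subunit gene Mrps25, mitochondria-specific, had 63.2 and 47.2 CPM in KO against 103 and 79.0 CPM in WT (log2 fold change -0.72, SE 0.19, adjusted p = 0.0936). The libraries of the genotypes did not overlap for Mrps25, but within each genotype they differed by more than the gap between the nearest KO and WT libraries. Replicate 2 lay below replicate 1 in each genotype. Between same-numbered libraries the log2 difference, KO minus WT, was -0.70 and -0.74. The deposited names of same-numbered footprint libraries carry a common tag, but no label says what it marks. The large-subunit gene Mrpl51, also mitochondria-specific, had 80.1 and 78.3 CPM in KO against 124 and 124 CPM in WT (-0.63, SE 0.14, adjusted p = 0.0593). Its replicates were nearly equal within each genotype. Mrps31, a mitochondria-specific small-subunit gene on chromosome 8, had 62.3 and 64.9 CPM in KO against 88.9 and 100.3 CPM in WT (-0.56, SE 0.16, adjusted p = 0.107). Mrpl41, of the large subunit and on chromosome 2, had 18.5 and 16.2 CPM in KO against 21.9 and 27.7 CPM in WT (-0.50, SE 0.20, adjusted p = 0.212). None of these passed the test in the fit without a replicate block. In the edgeR fit with the block each did (adjusted p of 1.01e-07, 8.86e-07, 4.29e-05 and 0.00943, in the order named). That fit called 2960 of 12315 genes in all, and it has little left from which to measure the spread.

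The largest positive values were smaller than the largest negative ones. Mrpl4, the counterpart of a bacterial protein that reaches into the exit tunnel, had 79.5 and 70.5 CPM in KO against 65.2 and 58.0 CPM in WT (log2 fold change 0.29, adjusted p = 0.356). The small-subunit gene Mrps28 had 75.7 and 64.2 CPM in KO against 60.6 and 54.9 CPM in WT (0.29, adjusted p = 0.379). For both genes the KO libraries lay above the WT libraries. Mrps30 (0.23), Mrpl57 (0.22) and Mrps5 (0.18) showed the same order of libraries, and Mrpl43 (0.25) overlapped. No gene with a positive value passed the test.

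**Figure D2:**
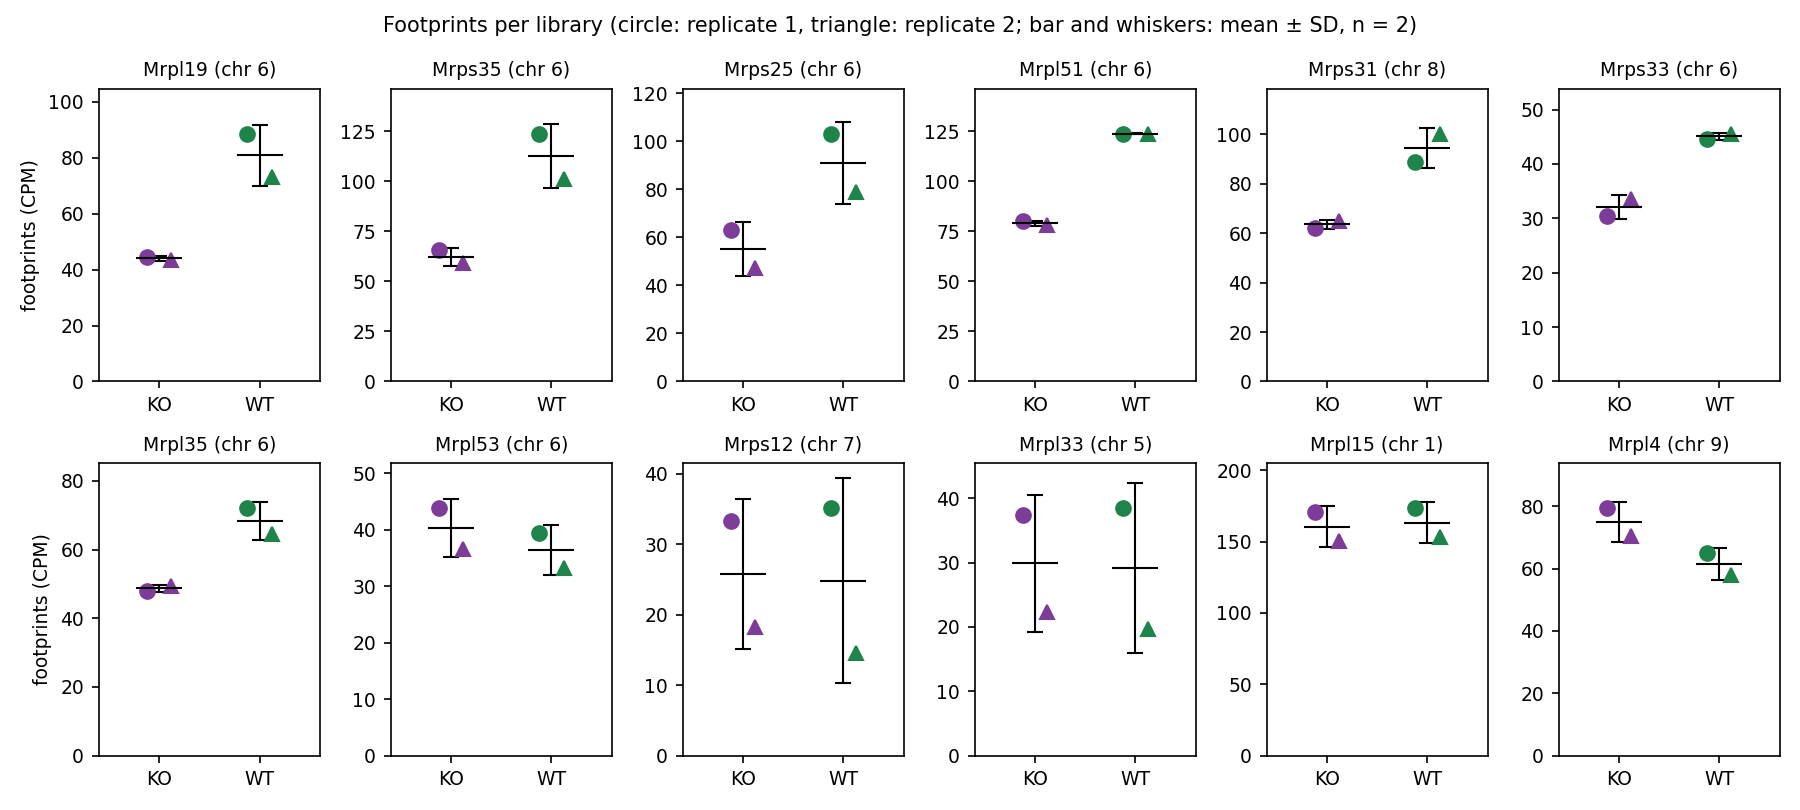
Footprint levels in CPM are shown for 12 genes, KO left of WT, with a circle for replicate 1, a triangle for replicate 2, and a bar with whiskers for the mean ± SD (n = 2). The KO points lie below the WT points for Mrpl19, Mrps35, Mrps25, Mrpl51, Mrps31, Mrps33 and Mrpl35, while for Mrps12 and Mrpl33 the 2 replicates of a genotype lie far apart and the genotypes coincide.

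For several genes the replicates differed more than the genotypes did. Mrps12, a protein of the decoding centre, had 33.2 and 18.2 CPM in KO against 35.2 and 14.5 CPM in WT (log2 fold change 0.04, SE 0.44, adjusted p = 0.974). Mrpl33 of the large subunit had 37.4 and 22.4 CPM in KO against 38.5 and 19.8 CPM in WT (0.03, SE 0.33, adjusted p = 0.972). In both genes replicate 2 lay below replicate 1 in each genotype, which held for 37 of the 77 genes, and 20 genes had replicate 2 above replicate 1 in each genotype. Mrps18b, with 103 and 71.4 CPM in KO against 114 and 65.6 CPM in WT, varied in the same way. The difference between replicates exceeded 0.5 on the log2 scale for 6 genes in KO and 10 in WT.

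The difference between the subunits, and between the evolutionary classes, was not tested. Of the 26 small-subunit genes 19 had a negative log2 fold change, the median was -0.07 and 1 was called lower. Of the 50 large-subunit genes 34 were negative, the median was -0.13 and 1 was called lower. Among 44 proteins with a bacterial counterpart the median was -0.10, and among 30 mitochondria-specific proteins it was -0.18, with 1 called lower in each. Mrpl12, of the stalk that recruits translation factors, had 108 and 123 CPM in KO against 140 and 136 CPM in WT (-0.25, adjusted p = 0.437). Mrpl45, which sits at the exit tunnel near the inner membrane, had 121 and 105 CPM in KO against 166 and 149 CPM in WT (-0.46, adjusted p = 0.142). Mrpl22, Mrpl23 and Mrpl24, counterparts of bacterial proteins at the exit tunnel, stood at -0.40, -0.42 and -0.45 (adjusted p of 0.212, 0.226 and 0.189). With chromosome medians removed they stood at -0.15, -0.49 and -0.51. Mrpl4, also at the tunnel, had the highest value of the 77 (0.29). Mrpl22 and Mrpl45 were named after seeing their values, so these genes do not stand for all genes at the tunnel. Mrps36, of the dehydrogenase complex, was at 0.07. By promoter letters, the median was -0.04 over the 25 genes with an ETS match and -0.15 over the 43 without, and -0.09 over the 13 with an NRF1 match and -0.13 over the 55 without. The pair with ETS letters printed above moved apart, at -0.40 for Mrpl22 and 0.25 for Mrpl43.

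The lowest values were not spread evenly over the genome. Of the 7 genes on chromosome 6, 6 had both KO libraries below both WT libraries and the median log2 fold change was -0.63. Of all 566 genes tested on that chromosome 60.6% had both KO libraries below both WT libraries, 83.4% were negative and the median was -0.38. Mrps33 had 30.5 and 33.6 CPM in KO against 44.6 and 45.6 CPM in WT (-0.48, adjusted p = 0.192), and Mrpl35 had 47.9 and 49.4 CPM in KO against 72.1 and 64.5 CPM in WT (-0.48, adjusted p = 0.162). The exception on chromosome 6 was Mrpl53, with 43.9 and 36.6 CPM in KO against 39.5 and 33.2 CPM in WT (0.16, adjusted p = 0.703). On the same strand, 695 bases of its exons are shared with another annotated gene, so its counts are uncertain. A like limit holds for Mrpl51, which shares 87 bases with Mir3098 on its own strand. It also holds for Mrpl19 and Mrps25, whose exons overlap a gene on the opposite strand by 1962 and 4590 bases. Such overlaps are not particular to chromosome 6. Among genes named here, Mrps18b (638 bases), Mrps30 (623), Mrpl24 (594) and Mrpl43 (507) have them on other chromosomes. All 10 genes on chromosome 11 were negative, with a median of -0.25, equal to the -0.25 over the 1044 genes tested there. Both genes on chromosome 8 were negative, with a median of -0.34 against -0.22 over 676 genes. These 3 chromosomes were picked because their genes were lower in KO as a whole. On the other chromosomes 35 of 58 mitochondrial ribosomal protein genes were negative (60.3%), against 43.1% of all genes tested there. Their median was -0.06, against 0.06 over those genes. None of the 58 was called, against 2.28%, and 3 had an unadjusted p below 0.05 (5.17%), against 16.8%. There the KO libraries lay below the WT libraries for 17 (29.3%, against 19.8% of all genes) and above them for 6 (10.3%, against 27.5%).

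With each chromosome's median taken out through an offset in the same edgeR fit, the median over the 77 genes was -0.11, against 0.00 over all genes, and none of the 77 was called, against 1.85% of all genes. At an unadjusted p below 0.05 there were 7 of them, against 16.4% of all genes. Mrpl19 then stood at -0.48 (adjusted p = 0.206) and Mrps35 at -0.46 (adjusted p = 0.209), while Mrpl53 stood at 0.54. The genes furthest below their chromosome were then Mrpl41 (-0.54), Mrpl24 (-0.51) and Mrpl23 (-0.49), on chromosomes 2, 3 and 7. None of these 3 passed the test with or without the medians removed. In the edgeR fit with a replicate block all 3 did (adjusted p of 0.00943, 0.000591 and 0.0110). That fit called 14 of the 77 genes, and 2960 of 12315 in all.

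**Figure D3:**
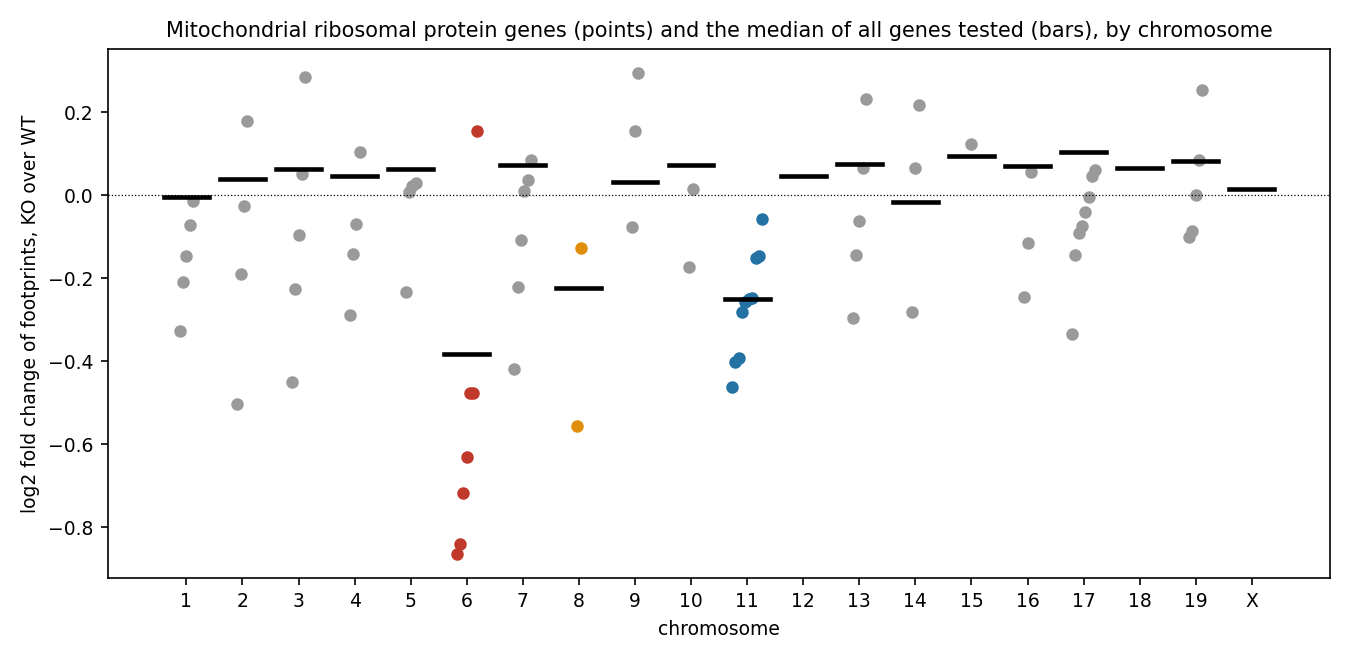
Each point is the log2 fold change of footprints (KO over WT) of a mitochondrial ribosomal protein gene, placed on its chromosome, and each black bar is the median of all genes tested there. Points on chromosome 6 reach -0.86 beside a bar at -0.38, all 10 points on chromosome 11 lie below 0, and most bars elsewhere lie at or slightly above 0.

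None of the other genes of mitochondrial translation listed here was called, and each list held values of both signs. Of 6 ribosomal proteins with other names, 5 were negative (median -0.25, and -0.15 with chromosome medians removed); the 3 lowest, Ptcd3, Ict1 and Gadd45gip1, lie on chromosomes 6, 11 and 8. Ptcd3, a small-subunit protein, had 145 and 159 CPM in KO against 223 and 217 CPM in WT (-0.52, adjusted p = 0.114). Ict1, a large-subunit protein that can release stalled chains, was at -0.43 (adjusted p = 0.223). Of 27 assembly factors 18 were negative (median -0.07), with the lowest p for Tfb1m, which dimethylates the small-subunit rRNA (-0.50, adjusted p = 0.212), and Malsu1, which keeps the subunits apart during assembly (-0.38, adjusted p = 0.311). Of 16 translation factors 10 were negative (median -0.12), among them the release factor Mtrf1 (-0.59, adjusted p = 0.216) and the initiation factor Mtif3 (-0.53, adjusted p = 0.230). Of 10 genes of mitochondrial transcription and RNA processing 5 were negative (median -0.02). The protease Lonp1 had 180 and 172 CPM in KO against 123 and 127 CPM in WT (0.51, adjusted p = 0.104), and the tRNA-processing enzyme Elac2 was at -0.53 (adjusted p = 0.199). Among 85 cytosolic ribosomal protein symbols 52 were positive, with a median of 0.06, and 0.03 with chromosome medians removed. Their summed footprints were 83708 and 84163 CPM in KO, between the WT sums of 90728 and 75808 CPM. Both KO libraries lay below both WT libraries for 15.3% of them and above for 16.5%. The share called higher was 2.35%, against 1.83% of all genes. These 2 genes were the retrogene Rpl10l (0.87, adjusted p = 0.0429) and Rpl39l (1.04, adjusted p = 0.0464). Both are paralogs whose counts may hold reads of the parent gene.

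In RNA-seq the 77 genes took 0.449% and 0.411% of all counts in KO, against 0.371% and 0.369% in WT. Their summed RNA level was 4489 and 4105 CPM in KO against 3714 and 3690 CPM in WT, so both KO sums lay above both WT sums, the opposite order to the footprint sums. Most of the genes had few or no counts at this depth: 31 to 40 of the 77 were at 0 in a given library, 13 were at 0 in all of them, and 10 passed the filter on low counts. Those 10 passed because they had counts, so they do not stand for the rest. They held 89.5% of the family's RNA-seq counts, so the sums rest on them, and Mrpl27, Mrps25, Mrpl35 and Mrpl19 alone held 69.8%. Among these, Mrpl27 and Mrps25 had both KO libraries above both WT libraries in RNA. Mrpl35 had both below, at 431 and 407 CPM in KO against 451 and 462 CPM in WT, and Mrpl19 overlapped. The order of the sums therefore does not describe the family as a whole. Rn45s took 0.638% and 1.02% of RNA-seq counts in KO against 7.99% and 3.33% in WT, and the RNA sums were not recomputed without it. Mrpl27, counterpart of a bacterial protein at the peptidyl transferase centre, had 1778 and 1335 CPM of RNA in KO against 1265 and 1259 CPM in WT. Its footprints were ordinary, 41.7 and 43.4 CPM in KO against 47.4 and 55.0 CPM in WT. Exons of 5 of the 10 genes overlap exons of a gene on the opposite strand, by 4590 bases for Mrps25 (with Nr2c2) and 1962 for Mrpl19 (with Gcfc2), as do those of 22 of the other 67. Whether the counting used strand is not stated, so RNA of a gene and of its antisense partner cannot be told apart.

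**Figure D4:**
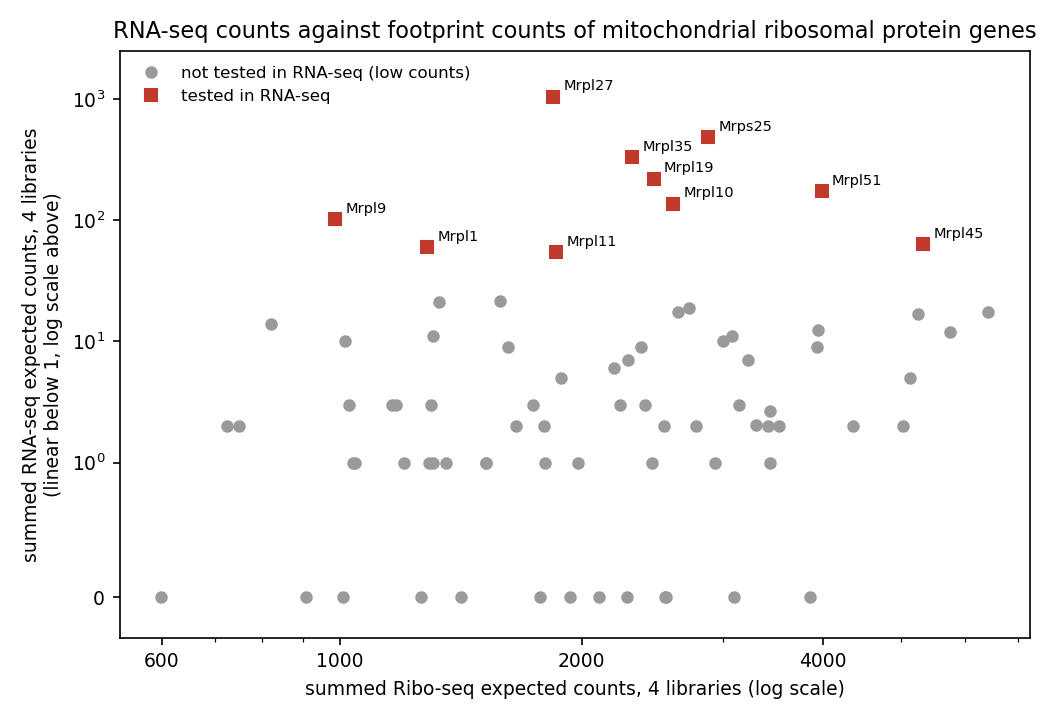
Each point is 1 of the 77 genes; the x axis is the expected count summed over the 4 footprint libraries (log scale) and the y axis the sum over the 4 RNA-seq libraries (log scale above 1, linear below). Red squares are the 10 genes tested in RNA-seq, from Mrpl11 with 54.3 counts to Mrpl27 with 1046, while grey points reach 21.7 at most and 13 lie at 0.

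None of the 10 genes was called in RNA-seq by edgeR or by DESeq2, where 6.37% of the 2087 genes tested were called by edgeR. By edgeR 2 had an unadjusted p below 0.05, as did 23.1% of all genes tested. Mrpl11, at the base of the stalk, had 41.9 and 41.5 CPM of RNA in KO against 96.4 and 92.5 CPM in WT (log2 fold change -1.30, SE 0.52, adjusted p = 0.158). These rest on 6.38 and 7.20 counts in KO, against 20.4 and 20.3 in WT. Mrps25 had 802 and 825 CPM of RNA in KO against 558 and 474 CPM in WT (0.56, SE 0.25, adjusted p = 0.212). The RNA of Mrpl19 was at 311 and 277 CPM in KO against 342 and 241 CPM in WT (-0.09, adjusted p = 0.900), a difference within the spread of the WT libraries.

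Translational efficiency, footprints relative to the RNA of the same gene, was tested for 10 of the genes; 8 had a negative log2 change, and Mrps25 was the only one called, lower in KO. Its log2 change was -1.25 (SE 0.33, adjusted p = 0.0358; edgeR interaction of assay and genotype, Benjamini-Hochberg). Of all 1458 genes tested 9.26% were called, 4.53% lower, and 24.4% had an unadjusted p below 0.05, as did 2 of the 10. The value joins lower footprints (-0.72) with a higher RNA count (0.56), neither of which passed its own test, and counts of Mrps25 may hold reads of Nr2c2. Mrps25 lies on chromosome 6, where the median footprint change of all genes tested was -0.38. With chromosome medians removed, its footprint change was -0.34 (edgeR, adjusted p = 0.429). The efficiency fit was not run with medians removed. RNA-seq counts of Nr2c2 itself were 40 and 32 in KO against 34 and 15 in WT. Scaled to library totals, these were 263 and 185 CPM in KO against 161 and 68.3 CPM in WT. Both KO levels of Nr2c2 RNA thus lay above both WT levels, as they did for Mrps25 RNA. The part of Nr2c2 reads in the efficiency of Mrps25 was not tested. The call held in 5 of 14 fits, and adjusted p ranged from 0.0107 to 0.163 over the 13 alternatives. It was lost on leaving out either KO footprint library, WT footprint replicate 1 or any RNA-seq library, where adjusted p lay between 0.0536 and 0.163, and with RLE scaling (0.0534), which set the median of all genes at 0.11. Mrpl19 had a change in efficiency of -0.74 (adjusted p = 0.217) and Mrpl11 of 1.25 (adjusted p = 0.127), and neither passed the test.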

How the data were processed

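RNA-seq and Ribo-seq tables of 2 KO and 2 WT libraries per assay were used. The submitters' processing notes list the mm10 build, RSEM and Bowtie2 2.3.4.3; whether counting used strand is not stated. The columns are expected counts (RSEM, shared reads split), TPM and FPKM, per the file headers. Expected counts were rounded for tests, deposited TPM gave levels between genes and 1 alternative, and the deposited FPKM was not used. Counting limits cover counting error only.

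Assays were fitted apart with edgeR 4.0.16 (R 4.3.3; robust quasi-likelihood, TMM, filterByExpr, Benjamini-Hochberg over all genes, threshold 0.05), and translational efficiency as the interaction of assay and genotype over 8 libraries. SE were derived from F. Same-numbered libraries are not stated to share a day, so the main fits had no block, and a replicate block was an alternative. Steps were tested on simulated counts. Positions and exon overlaps came from GENCODE M21 (GRCm38), promoters from RefSeq.

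Genes named were those called in any fit, the 6 largest increases and decreases (mean count at least 50), the 4 highest and 2 lowest TPM, the S18 paralogs, genes of known role or unclear subunit, the 3 smallest p in RNA-seq and efficiency, and up to 2 per related list. Others (the remaining chromosome 6 genes, Mrpl45, Mrpl22, Mrpl33) joined after seeing their values. The 77 genes, lists, subunits, motifs and chromosomes were chosen with earlier results of these data known. Alternatives were RLE scaling, a minimum mean count of 50 or no filter, DESeq2 1.42.0, limma 3.58.1 on log2(TPM + 1), a replicate block, removed chromosome medians and leaving out each library.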

Additional observations from a re-analysis of the deposited data

Results flagged for a closer look

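The effect of genotype on Mrps25 differed between the assays in the main fit, by a test of the difference itself. That call held in 5 of 14 fits and was lost with RLE scaling and without a filter. Mrps25 was 1 of 10 genes of the family tested, and of all 1458 genes tested 9.26% were called. The log2 change in translational efficiency was -1.25 (edgeR interaction, adjusted p = 0.0358), with footprints of 55.2 ± 11.3 CPM in KO and 91.1 ± 17.1 CPM in WT and RNA of 813 ± 16.4 CPM in KO and 516 ± 59.9 CPM in WT (SD, n = 2 each). Exons of Mrps25 share 4590 bases with Nr2c2 on the opposite strand, which bears on either assay if strand was not used in counting; footprints of Nr2c2 itself were 10.0 and 11.1 CPM in KO against 11.5 and 11.2 CPM in WT. Mrps25 also lies on chromosome 6, whose genes were lower in KO footprints as a whole. The parts of that shift and of the overlap in the ratio were not tested.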

How the results depend on the processing

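Of the 77 genes, 2 were called in footprints, and 4 without a filter (1110 of 17328 genes in all), 0 with limma, 0 with chromosome medians removed and 0 to 3 on leaving out a library (0 without either KO library); RLE scaling, DESeq2 and the stricter filter stayed within 1.5 times. The median log2 fold change ran from -0.20 to -0.058 on leaving out a library, and the summed CPM ratio was -0.11 without Rn45s. Efficiency called 1 gene, and 0 with RLE scaling, 0 without a filter and 0 to 1 on leaving out a library. With a replicate block 14 genes were called, all lower (2960 of 12315 genes in all), 10 of them on chromosomes 6, 8 and 11 and Mrps25, Mrpl51, Mrps31 and Mrpl41 among them; the block ended no call. Same-numbered libraries deviated together (r = 0.774 over the 77 genes, 0.433 over all genes tested, across genes that are not independent), and the deposited names of same-numbered footprint libraries carry a common tag. No label says what the tag marks. With 2 libraries per genotype, the fit with the block has little left from which to measure the spread. Which of the fits gives the better number of calls was not tested. By subunit, the small subunit had 2 calls without a filter, 5 with the block, 0 with limma and 0 with chromosome medians removed, and 0 to 2 on leaving out a library; the large subunit had 2 without a filter and with DESeq2, 9 with the block, 0 with limma and 0 with medians removed, and 0 to 1 on leaving out a library. Proteins with a bacterial counterpart had 5 with the block, 0 with limma, medians removed or a KO library left out, and at most 1 otherwise; mitochondria-specific proteins had 3 without a filter, 2 with DESeq2, 9 with the block, 0 with limma and medians removed, and 0 to 2 on leaving out a library. With the block, calls in the related lists were 3 other ribosomal proteins, 1 assembly factor, 5 translation factors, 2 transcription genes (0 to 1 on leaving out a library), 12 cytosolic ribosomal proteins, 3 pluripotency, 8 fibroblast and 5 endoderm markers. Cytosolic ribosomal proteins had 0 with a mean count of at least 50, limma or medians removed, and 0 to 2 on leaving out a library; pluripotency markers had 1 without a filter and with DESeq2 and 0 to 1 on leaving out a library; fibroblast markers had 7 without a filter, 0 with a mean count of at least 50 and limma, and 1 to 6 on leaving out a library. No direction of a called gene reversed in the settings run. Depth limits the RNA-seq side, where 67 of the 77 genes had too few counts to test.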
